A study of Danio rerio with 4 samples.

Results

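The response of the wild-type zebrafish heart to injury was read from 1 library of uninjured hearts and 1 library of hearts taken 3 days after amputation (3 dpa). Both libraries came from Ekkwill fish with the genotype LEN+/+, which carry the intact lepb-linked regeneration enhancer LEN. A gene was a member of the analysis when it reached at least 1 CPM (library-scaled counts, CPM, with TMM factors) in either library, and 16094 of the 32520 gene IDs did. Of the members, 14548 reached 1 CPM in both libraries, 855 at 3 dpa alone and 691 in the uninjured library alone. The nearest ID below the limit reached 0.991 CPM and the lowest member 1.01 CPM. There are no replicates: every difference below compares 1 library with 1 library, and nothing was tested against variation between hearts. The study also sequenced 1 uninjured and 1 3 dpa library of Ekkwill fish homozygous for a deletion of LEN (LEN mutant), which are set beside the wild-type values where they bear on them. Neither the number of hearts pooled in a library nor the age of the fish is given in the sources used here, and the treatment label names the operation only as amputation.

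Zebrafish replace lost heart muscle after injury. In the first days the wound holds clotted blood and inflammatory cells, the epicardium covering the heart switches on embryonic genes and spreads over the wound, and fibroblasts and epicardial cells lay down a provisional matrix. Cardiomyocytes near the wound then partly lose their contractile organisation, change their fuel use and divide. Expression of leptin b, a secreted cytokine of the leptin family, is an early mark of this state in zebrafish, and LEN is the enhancer named for it.

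The libraries held 31618442 counts (uninjured) and 35026983 counts (3 dpa). Transcripts of the 13 genes of the mitochondrial genome took 16.1% of the uninjured and 11.3% of the 3 dpa counts. The TMM factors were 0.91 and 1.095 for these libraries. Each log2 ratio of 3 dpa over uninjured used a prior count of 2 and carries an exact 95% interval from the counts, which covers counting error only. A gene was called higher or lower, and is said to have risen or fallen, when its log2 ratio was at least 1 in size and this interval excluded 0. Defining markers of heart tissue were abundant in both libraries, with 381036 and 265076 counts of the atrial and ventricular myosin light chain MYL7. The defining skeletal muscle genes myhz1.1 and myhz2 had at most 1 count, and the pancreatic genes cela1.2 and prss1 had at most 18 counts. Other markers of these tissues were present, with 483 and 310 counts of the pancreatic CPA1 ENSDARG00000021339 and 62 and 97 of the muscle troponin TNNT3 ENSDARG00000068457. Of the 17 members of the skeletal muscle list, 1 was called higher and 6 lower. Of the 4 pancreas members 0 were higher and 2 lower, and of the 20 members of a skin, gill and gut list 5 were higher and 3 lower. The part of other tissue in the results was not tested. Markers of liver did not follow the label of a heart library and come first.

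Most transcripts known as liver products were abundant in the wild-type uninjured library and nearly absent from the other libraries. A list of 54 liver genes, covering apolipoproteins, fibrinogen, plasma protease inhibitors and metabolic enzymes, had 48 members, of which 40 were called lower, against 6.78% of all members, and 0 higher. For 36 of these 40 genes the level in the LEN mutant uninjured library was more than 4-fold below the wild-type one. The 36 genes together reached 1570 CPM in the wild-type uninjured library, against 6.87 CPM in the LEN mutant uninjured library, 6.39 CPM in the wild-type 3 dpa library and 8.44 CPM in the LEN mutant 3 dpa library. The level of these 36 was thus low in an uninjured library too, and the wild-type uninjured library stood alone. The whole list took 0.249% of the counts of that library and still summed to between 744 and 848 CPM in each other library, mostly through genes found in all 4. The transferrin gene tfa had 10356, 1151, 14879 and 16268 counts (wild-type uninjured, LEN mutant uninjured, wild-type 3 dpa, LEN mutant 3 dpa), and the retinol carrier RBP4 had 15976, 14631, 9008 and 9755. The apolipoprotein gene apoa1b, a carrier of plasma lipid, had 8972 counts there and 7, 3 and 6 in the LEN mutant uninjured, wild-type 3 dpa and LEN mutant 3 dpa libraries. For the fibrinogen chain gene fga the counts in the same order were 1697, 0, 0 and 4, a level at least 754-fold lower at 3 dpa when the injured library is set at 3 counts. These transcripts are read as possibly carried over with other tissue, and whether tissue was carried over or heart cells made them was not tested.

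Most complement and acute phase genes, and most thyroid genes looked up, were also lower at 3 dpa. Of the 20 complement and acute phase members, 12 were called lower and 4 higher, with a median log2 ratio of -2.39. With the LEN mutant uninjured library as the reference, 9 genes of that list reached 1 CPM, 0 were lower and 6 higher. The 4 rises were c7a (138 to 393 CPM), c4b (90.5 to 184 CPM), the ferritin-like fthl27 (92.1 to 219 CPM) and the protease inhibitor TIMP2 ENSDARG00000075261 (15.6 to 194 CPM). For the terminal complement gene c9, uninjured wild-type hearts gave 821 counts and each other library at most 1. Thyroglobulin, the TG gene of the thyroid follicle, reached 32378 counts in uninjured wild-type hearts, against 6623 in uninjured LEN mutant hearts and 2492 and 4714 in the wild-type and LEN mutant hearts at 3 dpa. The iodide transporter SLC5A5 had 98, 17, 10 and 13 counts in that order, and the thyroid transcription factor PAX8 had 110, 20, 7 and 5. Of 11 thyroid genes looked up, after TG had been seen among the large falls, 9 were called lower and 0 higher. Over all members 6.78% were lower and 13.2% higher. The oxidase duox had 33, 7, 41 and 38 counts in the same order, and the anion transporter SLC26A4 had 3, 7, 14 and 18, and neither was called. Among the 9 lower genes, TSHR (18 and 4 wild-type counts), IYD (19 and 1) and foxe1 (12 and 2) were not members. They reached 1 CPM in neither wild-type library, and SLC26A4 was not a member either. TG itself was present in all 4 libraries and highest in the wild-type uninjured one.

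**Figure D1:**
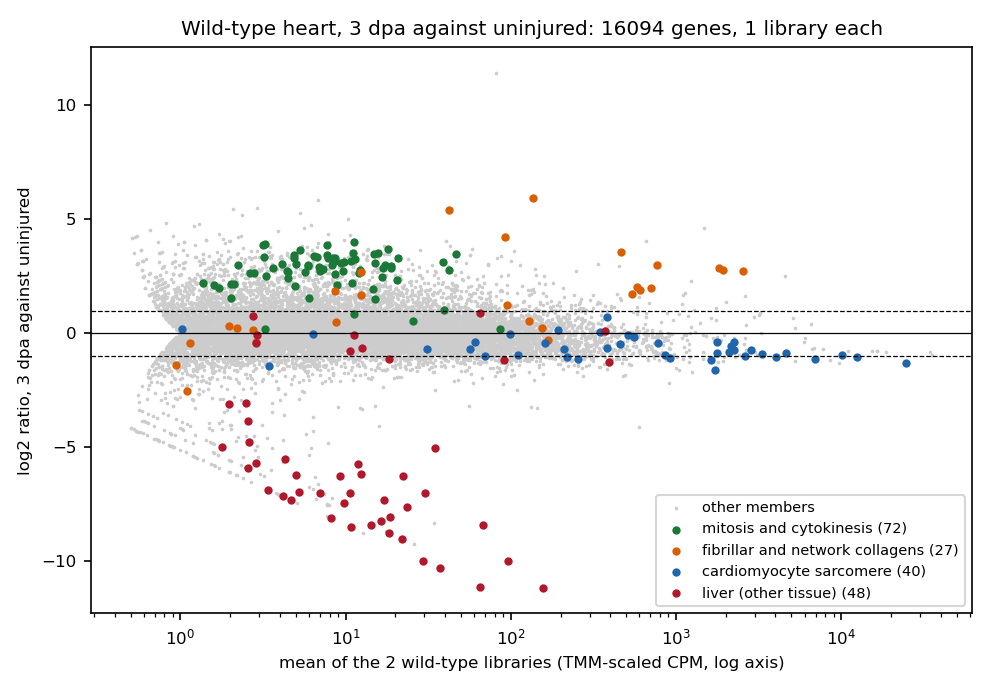
Log2 ratio of wild-type 3 dpa over uninjured for the 16094 members (points) against the mean CPM of the 2 libraries on a log axis, with dashed lines at log2 ratios of 1 and -1. The 72 mitosis genes lie above 0, the 27 collagens reach a log2 ratio of 5.935, most of the 40 sarcomere genes lie between 0 and -1.60 at high CPM, and most of the liver genes form the lower band down to -11.15.

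Across all members, 3212 genes (20.0%) were called, 2121 higher (13.2%) and 1091 lower (6.78%), and the median log2 ratio was 0.03. Under the total count in place of TMM the median of all members was 0.29 and 83.2% of 3624 calls were higher, against 66.0% under TMM and 56.7% of 3260 calls under upper-quartile factors. Directions below are therefore relative to the TMM scale. The remaining 12882 members (80.0%) lay within 1 log2 unit of equal abundance. Counts of calls in the lists below are to be read beside the 13.2% and 6.78% of all members. Of the rises, 620 were members through the 3 dpa library alone, and 430 of the falls through the uninjured library alone. For such genes the 1 CPM filter fixed part of the shares of calls in advance, in the lists too. The rises were spread along a continuous scale, with 684 genes (4.25%) at a log2 ratio of at least 2, 209 (1.30%) of at least 3 and 39 (0.242%) of at least 4. The falls were split: 273 genes (1.70%) were at -2 or lower, 191 (1.19%) at -3 or lower and 152 (0.944%) at -4 or lower, so most of the steep falls were very steep.

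The steep falls were nearly all genes at which the uninjured libraries themselves differed. Of the 191 falls with a log2 ratio of -3 or lower, 185 (96.9%) were at least 4-fold lower in the LEN mutant uninjured library than in the wild-type one, and 18 were also called lower in the LEN mutant pair. Among the 818 falls between -1 and -2, 21 (2.57%) had such a gap between the uninjured libraries, and 383 (46.8%) were called lower in the LEN mutant pair, where 5.30% of all members were. Both the fall and the gap use the wild-type uninjured counts. A fall smaller than 4-fold can show the gap only where the LEN mutant uninjured level lies below the wild-type 3 dpa level. The low share among the smaller falls is therefore partly set by the limit. The rises did not show this split between steep and smaller changes. Of the 209 rises with a log2 ratio of at least 3, 4 had a gap between the uninjured libraries of that size and 202 (96.7%) were also called higher in the LEN mutant pair, where 14.3% of all members were. The 1437 rises between 1 and 2 were called higher in the LEN mutant pair in 1095 cases (76.2%). Over all members 19.6% were called in the LEN mutant pair. That pair consists of different libraries but also of another genotype, so it is no replicate of the wild-type pair.

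**Figure D2:**
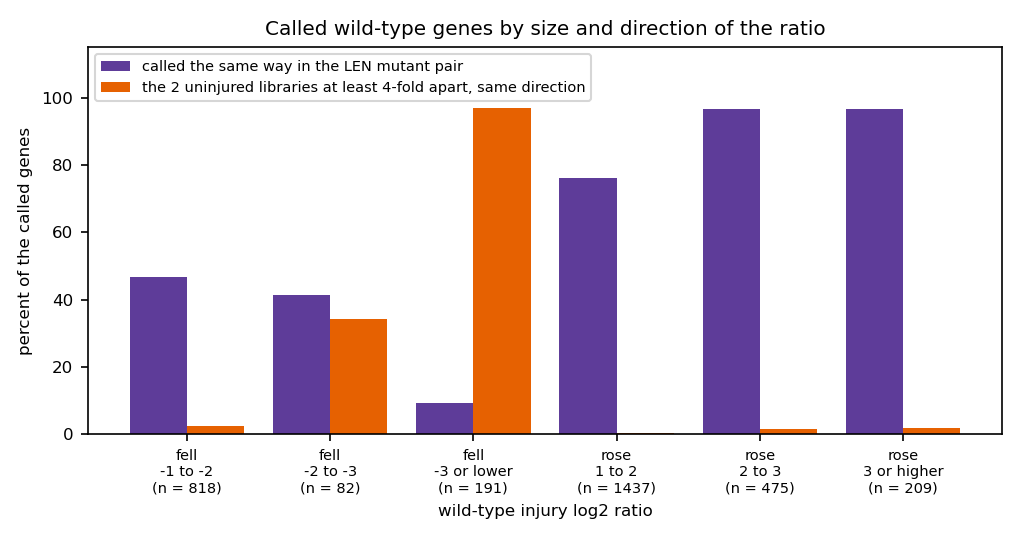
Percent of the called wild-type genes, by direction and size of the log2 ratio, that were called the same way in the LEN mutant pair (left bars) and whose uninjured libraries were at least 4-fold apart in the direction of the change (right bars). The steepest falls stand apart, with 96.9% of 191 genes differing between the uninjured libraries and 9.42% called in the LEN mutant pair.

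Rises outnumbered falls among genes of middle expression level. Levels here are geometric means of the 2 libraries, each set to at least the floor of 3 counts. Among the 4021 members with such a mean between 3 and 10 CPM, 15.5% were called higher and 4.80% lower. Among the 3015 members between 30 and 100 CPM the shares were 6.50% and 3.88%. No shares are given below 1 CPM, where a member passed the limit through 1 library alone. At higher levels the balance turned. Among the 1177 members between 100 and 1000 CPM 7.14% were higher and 8.58% lower. Of the 92 members with such a mean of at least 1000 CPM 8 were higher and 19 lower. Those 19 falls included MYH7, mb and GAPDH.

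Among called genes, the largest gains in CPM were in matrix, keratin, cytoskeletal and globin genes. Fibronectin, the adhesive glycoprotein of provisional matrix, has 2 IDs with the symbol FN1. FN1 ENSDARG00000006526 rose from 39259 to 298059 counts (1365 to 7773 CPM), a log2 ratio of 2.51 (2.50 to 2.52). FN1 ENSDARG00000019815 rose from 3324 to 109605 counts (116 to 2859 CPM), a 24.7-fold change. Both started from a detectable level in uninjured tissue. COL1A1 rose from 667 to 4391 CPM, COL1A2 from 494 to 3369 CPM and col1a1a from 441 to 3203 CPM, and these 3 genes encode chains of type I collagen. ANXA2, a membrane-binding annexin, rose from 1270 to 3940 CPM, and the epithelial keratin krt4 from 418 to 2031 CPM. The beta-actin gene actb1 rose from 1093 to 2390 CPM, and the globin genes HBE1 and hbaa2 rose with log2 ratios of 1.38 and 1.76. The globin gene hbaa1 went from 2259 to 4179 CPM, a larger gain than some of these, with a log2 ratio of 0.89 below the limit.

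Among called genes, the largest losses in CPM were in contractile and energy genes. MYH7, the symbol given to a ventricular-type myosin heavy chain gene, fell from 1007701 to 545486 counts (log2 ratio -1.30). Myoglobin (mb) fell from 477087 to 314143 counts, the mitochondrial ADP/ATP carrier SLC25A5 from 396381 to 213991, and the glycolytic enzyme GAPDH from 339914 to 203143. The losses continued with cmlc1, the sarcoplasmic calcium pump atp2a2a, MYBPC3, ldb3b, the ATP synthase subunit ATP5F1A and the isocitrate dehydrogenase IDH2, with log2 ratios between -1.60 for ldb3b and -1.02 for ATP5F1A. MYL7, from 13200 to 6910 CPM, and the genes of the mitochondrial genome also lost many CPM without passing the limit. In whole-heart RNA a smaller share of cardiomyocytes and less RNA of these genes per cardiomyocyte cannot be told apart. Under the total count the log2 ratios of mb, GAPDH, cmlc1, atp2a2a, MYBPC3, ATP5F1A and IDH2 were between -0.75 and -0.94, below the limit for a call, while those of MYH7, SLC25A5 and ldb3b still passed it.

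**Figure D3:**
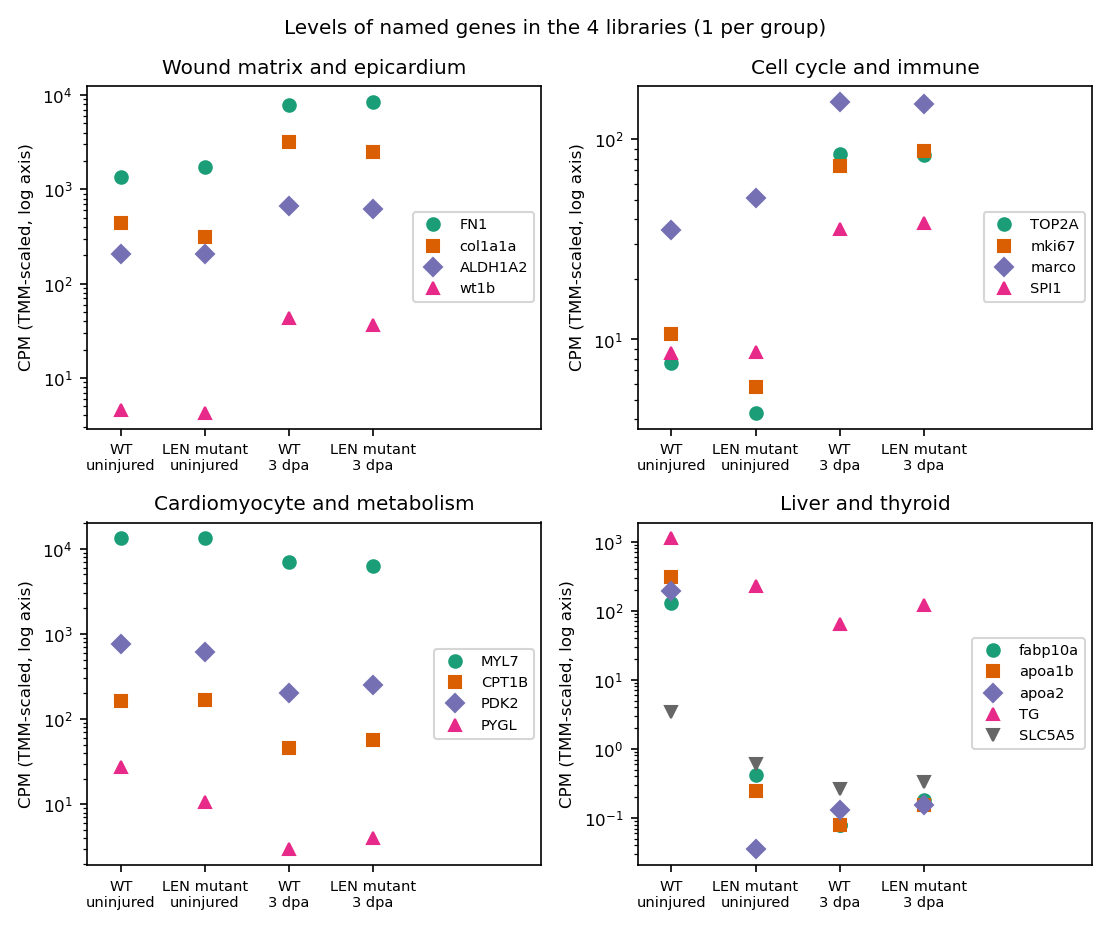
CPM (TMM-scaled, log axis) of named genes in each of the 4 libraries, 1 library per group. Matrix, epicardial, cell cycle and immune genes are higher in both 3 dpa libraries, MYL7, CPT1B, PDK2 (ENSDARG00000020876) and PYGL are lower in both, and the liver genes plotted and TG are highest in the wild-type uninjured library. FN1 is ENSDARG00000006526, and fabp10a, at 0 counts in the wild-type 3 dpa library, is drawn there at the floor of 3 counts, largely behind apoa1b.

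Collagen genes rose broadly. Of 27 members of the collagen list, 16 rose and 2 fell, with a median log2 ratio of 1.71 against 0.03 over all members. Their summed level went from 3410 to 18200 CPM on the TMM scale. Their share of the raw counts, without that scaling, went from 0.311% (exact binomial 95% interval, 0.309 to 0.313%) to 1.997% (1.993 to 2.002%). These intervals cover counting error only. The steepest rises were in collagens that accompany the main fibrils. COL12A1 ENSDARG00000019601, a collagen that decorates type I fibrils, went from 4.31 to 267 CPM, and its other ID, ENSDARG00000078322, from 73.5 to 861 CPM. COL11A1 rose from 55 to 3184 counts and col11a1b from 267 to 6725, both chains of the minor fibrillar collagen type XI. Type V (COL5A1, log2 ratio 2.99) and the 3 type VI chains (col6a1, COL6A2 and COL6A3, log2 ratios 1.71 to 2.03) also rose. The basement membrane chains COL4A1 and COL4A2 had log2 ratios of 0.23 and 0.53 and col18a1a -0.28, all below the limit. The type IV chain col4a5 rose (1.88). Of the 2 falls, COL11A2 went from 40 to 19 counts and col5a2b from 55 to 11, both from low levels.

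The enzymes that modify and crosslink collagen rose with it in part. Among 32 members, 17 rose and 1 fell, with a median of 1.01. The lysyl hydroxylase PLOD2 rose from 40.9 to 245 CPM (log2 ratio 2.58, 2.49 to 2.67), and the transglutaminase TGM2 ENSDARG00000074094 from 65.0 to 433 CPM. The collagen chaperone SERPINH1 rose for both of its IDs, with log2 ratios of 2.37 and 1.44. LOXL2 and loxl2a, lysyl oxidases that form crosslinks, had log2 ratios of 2.11 and 1.78, and LOX itself 1.52. Catalytic subunits of prolyl hydroxylase did not rise, with 0.59 for P4HA1, 0.84 for p4ha1a and -0.20 for P4HA2, and P4HA3 fell from 48 to 7 counts. Their partner P4HB rose (1.01). LOXL1 had 5377 and 7379 counts, a log2 ratio of 0.04.

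The provisional matrix list held 53 members, of which 22 rose and 3 fell, with a median of 0.67. POSTN ENSDARG00000104267, the matricellular protein periostin, rose from 72.2 to 604 CPM, while the other POSTN ID, ENSDARG00000043806, went from 64.2 to 91.2 CPM and was not called. Tenascin C, which loosens cell adhesion, rose for both of its IDs, from 272 to 2855 and from 7 to 50 counts. The hyaluronan synthases HAS1 and HAS2 rose with log2 ratios of 2.92 and 1.84. Thrombospondins rose for THBS1, thbs2a, thbs2b and THBS4, and THBS3 did not pass. The falls were elastin b, elnb, from 763 to 215 CPM, and the 2 IDs of vitronectin (VTN). The VTN genes belong to the liver-made proteins, with 201 and 126 counts in uninjured wild-type hearts and at most 2 in any other library. With the LEN mutant uninjured library as reference 27 genes of the list rose and 0 fell, and elnb then had a log2 ratio above -1.

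Matrix proteases and their inhibitors changed less uniformly, with 13 rises (36.1%) and 1 fall (2.78%) among 36 members. Over all members 13.2% rose and 6.78% fell. The collagenase mmp13b rose from 5 to 171 counts, and the membrane protease adam8a, a gene of activated leukocytes, from 8.17 to 108 CPM. The gelatinase MMP2 rose from 244 to 560 CPM and both IDs of the membrane-bound MMP14 rose, with log2 ratios of 1.81 and 1.63. The metalloprotease inhibitor TIMP2 ENSDARG00000075261 rose beside them, from 448 to 7423 counts. MMP9 had a log2 ratio of 0.71 and was not called. Its uninjured counts were 503 in wild type and 222 in the LEN mutant, where it was called higher (2.11). Among 25 integrin members, 8 rose (32.0%), led by the leukocyte subunits itgb7, itgae.1 and ITGA4 (log2 ratios 2.79, 2.38 and 2.01). ITGA8 fell, from 936 to 333 counts, and the fibronectin receptor ITGA5 stood at 0.62.

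Epicardial genes were higher at 3 dpa. The epicardium list had 30 members, of which 19 rose and 1 fell, with a median of 1.40; it shares FN1, POSTN, COL12A1 and TGM2 with the matrix lists. Transcription factors of the epicardium rose together. The Wilms tumour factor wt1b went from 130 to 1668 counts (4.52 to 43.5 CPM), a 9.62-fold rise, and WT1 from 222 to 1089 counts. TCF21 rose from 44.5 to 108 CPM and TBX18 from 46.3 to 102 CPM, so the factor with the lowest uninjured counts had the largest ratio. The retinaldehyde dehydrogenase ALDH1A2, which makes retinoic acid in the activated epicardium, rose from 5903 to 25774 counts (log2 ratio 1.71, 1.67 to 1.75). Midkine, a heparin-binding growth factor, rose steeply for MDK ENSDARG00000036036, from 75.0 to 1245 CPM, and fell for MDK ENSDARG00000020708, from 26.7 to 13.1 CPM. Simple epithelial keratins rose for krt18a.1 and krt18b (1.59 and 1.53), while krt8 stood at 0.83 and krt94 at 0.67.

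Retinoic acid genes beyond ALDH1A2 also changed. Of 26 members of that list, 9 rose and 3 fell. STRA6, the cell surface receptor that takes up retinol, went from 1 to 68 counts, and the ratio of the 2 levels had a log2 interval from 3.15 to 11.00. The retinol dehydrogenase RDH10 ENSDARG00000058730 rose from 731 to 3799 counts, and the retinoic acid binding protein CRABP2 rose for both of its IDs, with log2 ratios of 2.96 and 1.73. The rises covered uptake, synthesis and binding. The plasma retinol carrier RBP4 fell, from 15976 to 9008 counts, with 14631 in the LEN mutant uninjured library. Of the degrading enzymes, CYP26A1 rose (1.08) and CYP26B1 stood at 0.28.

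Fibroblast and mural genes had calls in both directions. Of 31 members, 10 rose (32.3%) and 3 fell (9.68%), where 13.2% of all members rose and 6.78% fell. The share of falls was thus near that of all members. The platelet-derived growth factor receptor PDGFRB rose from 27.6 to 86.5 CPM, the small proteoglycans LUM and DCN rose with log2 ratios of 2.14 and 1.36, and PDGFRA stood at 0.24. The falls were RGS5, a regulator of G protein signalling found in pericytes, from 426 to 118 CPM, the smooth muscle actin acta2, from 656 to 305 CPM, and elnb, the elastin of the outflow tract wall. The smooth muscle myosin MYH11 ENSDARG00000009782 stood at -0.94. In the LEN mutant pair RGS5 had a log2 ratio of -1.25, acta2 -0.94 and elnb -1.06.

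Cell division genes rose the most uniformly of the lists examined. All but 4 of the 72 mitosis and cytokinesis members rose (68, with 0 falls), and the median log2 ratio was 2.90. The topoisomerase TOP2A, which untangles replicated chromosomes, went from 220 to 3261 counts (7.65 to 85.0 CPM; log2 ratio 3.46, 3.28 to 3.68). The proliferation antigen mki67 rose from 305 to 2817 counts, the mitotic kinase CDK1 from 73 to 1290, its partner CCNB1 from 71 to 1115 and the cytokinesis kinesin kif20a from 37 to 818. None of these genes was at 0 before injury. The 4 members not called were BUB3, ZW10, CKAP5 and cenpo, with log2 ratios from 0.19 to 0.87. CKAP5 had the highest uninjured count of the list, 2310. The summed level of the list was 294 CPM in the uninjured and 1380 CPM in the 3 dpa library, and 242 and 1440 CPM in the LEN mutant libraries.

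DNA synthesis followed with smaller ratios. Of 54 replication members, 39 rose and 0 fell, with a median of 1.48. Thymidylate synthase, TYMS, rose from 52 to 741 counts, and all 6 subunits of the MCM replicative helicase rose, from a log2 ratio of 1.36 for MCM7 to 3.06 for MCM6 ENSDARG00000057683. A second MCM6 ID, ENSDARG00000033231, had 8 and 3 counts. The sliding clamp PCNA rose from 37.9 to 138 CPM. The single-strand binding protein RPA1 (0.38) and the clamp loader RFC1 (0.35) were not called. Among 28 repair members 15 rose and 0 fell, with the damage kinase CHEK1 at 2.39, whereas ATM and ATR stood at 0.36 and -0.37. In the list of cyclins and cell cycle inhibitors 8 of 32 members rose, among them CCNE2 (2.15) and CDK2 (1.93), while CCND1 (0.34), CDK4 (-0.12) and the inhibitor cdkn1a (0.39) did not pass. In the list of histones and chromatin regulators 12 of 51 members rose and 0 fell, with a median of 0.52. The rises included the maintenance methylase DNMT1 (1.52) and the histone chaperone ASF1B ENSDARG00000101037 (2.72), while the other ASF1B ID stood at 0.23.

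The genes that dividing cells need for nucleotides were called in a few cases. Of 35 members of the pentose phosphate, one-carbon and nucleotide list, 6 rose (17.1%) and 1 fell (2.86%), where 13.2% of all members rose and 6.78% fell. Enzymes of serine and mitochondrial folate metabolism led, with PHGDH at 19 and 225 counts, MTHFD1L at 16 and 253, and PSAT1 at 257 and 1160. Ribosome biogenesis stood apart from this, with 0 of 56 members called in either direction and a median of 0.00, whose sign changed with the scaling. The largest ratios there were 0.62 for EBNA1BP2 and -0.83 for utp18.

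Macrophage genes rose in most cases, 20 of 27 members with 0 falls and a median of 1.79. The pore-forming macrophage gene MPEG1 ENSDARG00000055290 rose from 483 to 3576 counts, the scavenger receptor marco from 35.4 to 155 CPM and the myeloid transcription factor SPI1 from 8.59 to 35.9 CPM. The colony-stimulating factor receptor csf1ra rose from 385 to 1930 counts, and its ligand csf1a from 66 to 402. The 3 chains of complement C1q, made by macrophages, rose with log2 ratios from 1.79 to 2.05. Antigen-presentation partners cd74a and cd74b stood at 0.34 and 0.76. Endosome and lysosome genes rose in 11 of 22 members, led by NPC2 ENSDARG00000096979 and the cathepsin S genes ctss2.1 and ctss2.2, at log2 ratios of 3.47, 3.44 and 2.26.

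Of 17 neutrophil-list members, 11 rose and 1 fell. The phagocyte oxidase subunit cybb, which neutrophils and macrophages share, rose from 448 to 2781 counts. The granule lysozyme lyz had 86 and 116 counts (log2 ratio 0.02), and npsn 355 and 652, and neither was called. Of 15 chemokine-list members, 8 rose (53.3%, against 13.2% of all members) and 1 fell (6.67%, near the 6.78% of all members). Of these rises, cxcl8a, cxcl8b.1, cxcr1 and ccr2 reached 1 CPM only at 3 dpa. The 1 CPM filter thus fixed part of the 53.3% in advance. The chemokine cxcl8a, a neutrophil attractant, rose from 5 to 145 counts and its receptor cxcr1 from 5 to 73. CXCR4 ENSDARG00000041959 rose from 233 to 1860 counts, whereas its ligand CXCL12 stood at 0.91. The lymphocyte lists were small: of 10 T and NK members 2 rose and 3 fell, the falls including the T cell kinase lck from 45 to 20 counts and the receptor chain cd247 from 189 to 118, and of 7 B cell members 2 rose.

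Interferon-response genes rose in 9 of 20 members, with 0 falls and a median of 0.59. The antiviral GTPases mxa, mxb and mxc rose from 82 to 729, 42 to 320 and 48 to 271 counts, and isg15 from 339 to 1355. The immunoproteasome subunits PSMB8 and PSMB9 rose (1.66 and 1.57), while 0 of 46 members of the proteasome list were called higher and 0 lower. Of these 46 proteasome members, 42 had a log2 ratio above 0, with a median of 0.51 and a highest ratio of 0.92 for PSME1.

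Secreted wound signals rose from low levels. Of the 11 members of the list of wound cytokines and leptins, 6 rose and 0 fell (54.5% higher, against 13.2% of all members). Leptin b, lepb, had 2 counts in the uninjured and 78 counts in the 3 dpa library, a log2 ratio of 4.02 (2.97 to 7.94). Its paralogue lepa had 1 and 24 counts and reached 1 CPM in neither library. Tumour necrosis factor tnfa had 0 and 41 counts, at least 10.3-fold higher at 3 dpa when the uninjured library is set at 3 counts. The IL-6 family member il11b went from 2 to 42 counts (log2 interval 2.04 to 7.07), while il11a went from 632 to 449 and was not called, and il1b rose from 49 to 160. Since lepb, tnfa and il11b reached 1 CPM only at 3 dpa, the 1 CPM filter fixed part of the 54.5% in advance. The list median of 1.196 was as low as 0.177 among the alternatives run. The whole list took 0.00721% of the 3 dpa counts. Their receptors and the Jak-Stat genes had 2 rises (11.1%, close to the 13.2% of all members) and 0 falls among 18 members. The median of that list was -0.05, and its sign changed with the scaling. The rises included lifrb, a receptor of the leukaemia inhibitory factor type (190 to 967 counts). STAT3, the transcription factor downstream of these receptors, stood at -0.26, and its feedback inhibitor SOCS3 at -0.205 and -0.993 for its 2 IDs.

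Early response factors were mostly not called at 3 dpa, as were 80.0% of all members. Of 17 members, fosl1b rose, from 21 to 82 counts, and ATF3 fell, from 2763 to 1532. Each direction thus held 5.88% of the members, against 13.2% higher and 6.78% lower over all members. JUN stood at -0.31, egr1 at 0.35 and FOSL2 at 0.48. With the LEN mutant uninjured library as reference, 5 of the same number of members were higher and 0 lower, so the calls of this list changed with the uninjured library used.

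Growth factor ligands had 4 rises and 3 falls among 32 members (12.5% and 9.38%), shares close to the 13.2% and 6.78% of all members. Beside MDK, the rises were fgf24 (17 to 99 counts), the activin subunit INHBA with the lower counts (72 to 317) and HBEGF (110 to 341). Neuregulin 1, NRG1, a mitogen of cardiomyocytes, had 39 and 87 counts and a log2 ratio of 0.72 (0.18 to 1.33), and its receptor ERBB2 stood at -0.71. The falls were BMP6, ANGPTL4 and the second MDK ID. Receptors rose for PDGFRB, FLT4 (153 to 679 counts) and 1 ID of TGFBR2 (228 to 994). The medians of the ligand and receptor lists, 0.05 each, changed sign with the scaling.

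Among targets of Hippo, Wnt and Notch signalling the calls were scattered, with 5 rises and 3 falls in 38 members and a median of -0.04 whose sign changed with the scaling. These shares, 13.2% and 7.89%, were close to the 13.2% and 6.78% of all members. ANKRD1, a stress-responsive muscle gene, rose from 19 to 571 counts (log2 ratio 4.38). CCN2 and CCN1, targets of Yap like ANKRD1, stood at 0.67 and 0.18 and were not called. The secreted Wnt inhibitors frzb, SFRP2 and both DKK3 IDs rose, and AXIN2, a common readout of Wnt signalling, stood at -0.24. All 3 falls were Notch-related repressors, HEY1 (56 to 36 counts), HEY2 (362 to 189) and heyl (59 to 32). Guidance genes rose in 10 of 45 members (22.2%, against 13.2% of all members) and fell in 0. Among the rises sema3h went from 2 to 78 counts (log2 interval 2.97 to 7.94) and the semaphorin SEMA3E from 114 to 678.

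Contractile genes were lower as a group, mostly by less than 1 log2 unit. Of 40 sarcomere members, 0 rose, 10 fell and 4 had a log2 ratio above 0, with a median of -0.74. Their share of all counts went from 11.3% (exact binomial 95% interval, 11.33 to 11.35%) to 6.90% (6.89 to 6.90%). The steepest fall was ldb3b, a Z-disc protein, from 2603 to 857 CPM, followed among the abundant genes by MYH7 and the M-line protein MYOM1 (65063 to 38917 counts). MYL7 stood at -0.94, the 2 titin IDs at -0.84 and -0.91 and the cardiac troponin T gene TNNT2 with the higher counts at -0.99. The atrial-type myosin myh6 had 73311 and 74654 counts (log2 ratio -0.39), and the muscle actin ACTA1 with the lower counts 8258 and 18156 (0.72), so the abundant genes of the list ranged from -1.60 to 0.72. The number of falls was 3 under the total count and 16 under upper-quartile factors, and it was 15 with the LEN mutant uninjured library as reference.

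Ion handling and stress genes of the cardiomyocyte had mixed calls. In the calcium and ion list 4 rose and 7 fell among 40 members, with 2 falls under the total count and 17 against the LEN mutant uninjured library. The sarcoplasmic pump atp2a2a fell from 7292 to 3184 CPM and the luminal calcium buffer hrc from 1214 to 645 counts, while the release channel RYR2 stood at -0.81. The gap junction gene GJA1 rose from 443 to 1344 counts and camk2d1 from 250 to 877, while camk2d2 fell from 2549 to 1668. Of 33 members of the list of cardiac transcription factors and natriuretic peptides, 2 rose (6.06%) and 3 fell (9.09%). The same all-member shares, 13.2% and 6.78%, stand beside these. Natriuretic peptides nppa and nppb, whose rise marks stressed heart muscle in mammals, had log2 ratios of 0.00 and 0.02. The related nppal rose from 75 to 477 counts in wild type, but the LEN mutant uninjured library already held 908 counts of it. The clearance receptor NPR3 fell from 661 to 216 counts. Cardiac transcription factors were not called in most cases, with gata4 at -0.56, HAND2 at -0.51, TBX20 at -0.01 and TBX5 at -0.41.

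Fatty acid genes had 20 falls and 1 rise among 53 members, where 6.78% of all members fell, and a median of -0.85. The acyl-CoA synthetase acsl1b, which activates fatty acids for oxidation, fell from 42687 to 12733 counts (log2 ratio -2.16, -2.19 to -2.13). CPT1B and cpt1ab, the carnitine transferases that admit fatty acids to mitochondria, fell from 164 to 45.7 and from 385 to 120 CPM, and the dehydrogenases ACADVL and ACADM fell with log2 ratios of -1.62 and -1.36. The carrier FABP3 fell from 16493 to 7435 counts. With the LEN mutant uninjured library as reference 25 of 52 genes were lower, and 12 genes of the list were called lower under the total count. UCP1, the steepest fall of the list, belongs with the liver genes in its distribution, with 1982 counts in uninjured wild-type hearts and 1, 6 and 4 in the others.

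Genes of pyruvate entry and the citrate cycle also fell in part. PDK2, a kinase that restrains pyruvate oxidation, fell for both of its IDs: ENSDARG00000059054 went from 6889 to 970 counts (-3.24) and ENSDARG00000020876 from 21638 to 7833 (-1.88). PDK4 fell with a log2 ratio of -1.13. The citrate cycle list includes both PDK2 IDs. Of its 27 members 8 fell (29.6%, against 6.78% of all members) and 0 rose, with a median of -0.91. The lowest ratio of the list, -3.24, was that of PDK2 ENSDARG00000059054, and citrate synthase (CS) went from 1348 to 667 CPM. Under the total count 2 genes of the list fell, and these were the PDK2 IDs.

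Respiratory chain genes were mostly below the limit for a call. Of 76 nuclear-encoded subunits, 5 fell (6.58%) and 1 rose (1.32%), where 6.78% of all members fell and 13.2% rose. The share of falls was thus close to that of all members. The median was -0.74. The falls were led by cox4i1l (-1.49) and cox7a1 (-1.33), subunits of cytochrome oxidase, and the rise was cox6a1 ENSDARG00000022438, from 717 to 2072 counts. All 13 genes of the mitochondrial genome had log2 ratios between -0.93 (MT-ND6) and -0.39 (mt-atp8), none past the limit, with a median of -0.78. Their share of counts was 16.1% (exact binomial 95% interval, 16.05 to 16.07%) and 11.3% (11.27 to 11.29%).

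Glycolysis genes fell or were not called, with 1 exception. Of 50 members, 13 fell and 1 rose, with a median of -0.61. The rise was hexokinase 2, HK2, from 188 to 1721 counts (log2 ratio 2.77, 2.56 to 3.00), while HK1 stood at -0.54. Among related isoforms, GAPDH fell and GAPDHS stood at 0.98, ENO3 fell (-1.14) and the ENO1 IDs stood at -0.25 and 0.67, and LDHB fell (-1.25) and LDHA stood at -0.28. PYGL, a glycogen phosphorylase, fell from 785 to 113 counts, and 1 ID of GPI from 2805 to 814. SLC2A2 and PKLR, the steepest falls, are a liver-type transporter and enzyme, with 42 and 347 counts in uninjured wild-type hearts and 0 and 7 in uninjured LEN mutant hearts. The part of carried-over tissue in these falls was not tested. Creatine and energy-buffer genes fell in 8 of 21 members, among them both IDs of the mitochondrial creatine kinase CKMT2 (-1.41 and -1.42), while CKB ENSDARG00000069752 rose from 1821 to 11331 counts.

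Genes of protein folding in the endoplasmic reticulum rose in 25 of 54 members, with 0 falls and a median of 0.97. The count was 19 under upper-quartile factors and 33 under the total count. Calreticulin genes calr3b, calr3a and CALR rose (1.89, 1.14 and 1.30), as did the disulfide isomerase PDIA4 from 43.1 to 146 CPM and the chaperone HSP90B1 from 163 to 445 CPM. The main luminal chaperone HSPA5 stood at 0.996, just short of a call. The sensors and effectors of the unfolded protein response did not move with the chaperones, with atf4a at -0.04, DDIT3 at 0.07, XBP1 at 0.14 and ern1 at 0.21. A list of cytosolic and mitochondrial chaperones had 2 rises among 41 members, and a median of -0.08 whose sign changed with the scaling. Both rises were IDs of SERPINH1, a collagen chaperone of the endoplasmic reticulum, so no other member of that list rose. Translation factors and tRNA synthetases had 2 rises and 1 fall among 59 members.

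Cytoskeletal genes rose in 26 of 64 members with 1 fall, and the median was 0.84. The tubulin tubb5 rose from 159 to 3056 counts, the thymosin tmsb2 from 162 to 1450 and the nuclear lamina gene LMNA from 58.9 to 263 CPM. Subunits of the Arp2/3 complex, which branches actin filaments, rose for ARPC1B, ARPC3, ARPC4 and both ARPC5 IDs. ARPC2 stood at 0.71. The single fall was acta2.

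Stress pathways gave no common direction between lists. The medians were -0.40 for hypoxia, 0.16 for oxidative stress, 0.25 for cell death and -0.29 for circadian genes, and none changed sign with the scaling. In the same order, 11 of 34, 19 of 35, 22 of 34 and 5 of 33 members had a log2 ratio above 0. Of 34 hypoxia-list members, 4 rose (11.8%) and 7 fell (20.6%), where 13.2% of all members rose and 6.78% fell. NDRG1 (793 to 2354 counts) and DDIT4 (311 to 913) were among the rises and both EPAS1 IDs (-1.15 and -1.40) among the falls. In the oxidative stress list 5 rose (14.3%) and 6 fell (17.1%) among 35 members, so the share of rises was close to that of all members. Heme oxygenase HMOX1, which breaks down heme, rose from 25.5 to 202 CPM, and the mitochondrial superoxide dismutase SOD2 fell from 252 to 116 CPM. Of 34 cell death members, 6 rose (17.6%, against 13.2% of all members), led by the inflammasome adaptor pycard (42 to 285 counts). Circadian genes were called in 3 of 33 cases, where 20.0% of all members were called, with bmal2 higher and dbpb and tefb lower. PER3 stood at -0.69 and cry3b at -0.67.

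Endothelial and endocardial genes were largely not called. Of 42 members, 1 rose (2.38%) and 3 fell (7.14%), with a median of -0.39. Over all members 13.2% rose and 6.78% fell, so the share of falls was close to that of all members. The junction gene cdh5 had 351 and 250 CPM and kdrl 216 and 155 CPM, log2 ratios of -0.49 and -0.48. The fall with the largest ratio was plvapa, from 512 to 193 counts, and the rise was the Notch ligand jag1a, from 54 to 159. Erythroid genes rose in 5 of 20 members, with a median of 0.60. The anion exchanger SLC4A1 with the higher counts rose from 18286 to 59447 counts, while the erythroid factors gata1a and klf1 stood at 0.23 and 0.22. Blood content of the dissected hearts was not measured, and its part in these values was not tested.

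Thrombocyte and coagulation genes fell into groups with different distributions. Of 33 members, 9 rose and 12 fell, and the sign of the median, -0.25, changed with the scaling. Some cell-bound platelet genes were among the rises, with P2RY12 from 11 to 73 counts and PLEK from 286 to 1416. The thrombocyte markers itga2b and GP1BB did not rise. The integrin itga2b stood at 0.06, and GP1BB went from 169 to 148 CPM in wild type and from 143 to 97.2 CPM in the LEN mutant. The fibrinogen chains, prothrombin (f2) and PLG were among the liver-type falls. F13A1 ENSDARG00000045453, the clot-stabilising transglutaminase, fell with a different distribution: wild-type counts were 7516 and 1045, and LEN mutant counts 5665 and 710. Against the LEN mutant uninjured library 7 genes of the list rose and 3 fell.

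Several of the largest rises lay outside the lists. The gene with the largest ratio was ENSDARG00000112702, which has no symbol. Its 6273 counts were all from wild-type hearts at 3 dpa, with 0 in the other 3 libraries, at least 1570-fold higher when the uninjured library is set at 3 counts. LIN7B, a scaffold protein of cell polarity, rose from 6 to 397 counts and CA10, a catalytically inactive carbonic anhydrase relative, from 11 to 417. The nuclear import receptor KPNA2 rose from 131 to 2944 counts, the endothelial lipase LIPG from 34 to 804 and the secreted factor angptl2a from 28 to 782. CTHRC1 (collagen triple helix repeat protein) went from 22 to 492 counts, MXRA5 from 19 to 394, adamtsl7 from 25 to 578 and PAMR1 from 25 to 482. The ferritin-like gene fthl28 and jac2 rose by log2 ratios of 5.03 and 4.77 in wild type and 4.14 and 3.58 in the LEN mutant. Among the 25 largest rises with at least 10 CPM, ENSDARG00000112702 was the exception, since the LEN mutant pair of the others had log2 ratios from 3.22 (PAMR1) to 6.05 (ENSDARG00000090267).

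All of the 25 largest falls with at least 10 CPM had at most 20 counts in the LEN mutant uninjured library. Falls that were also called with that library as reference, a rule chosen after values had been seen, gave a partly different picture. Ranked by the ratio against the wild-type uninjured library, the steepest with at least 10 CPM were the liver gene fabp10a, then zgc:123103, TG, F13A1, PHEX, PDK2 and PYGL. Of these, fabp10a, zgc:123103, TG and PHEX were not called in the LEN mutant pair. Their wild-type uninjured levels were 311-, 12.1-, 4.87- and 3.41-fold above the LEN mutant uninjured ones. Against the LEN mutant uninjured library their log2 ratios were -3.01, -1.245, -1.83 and -1.485, where fabp10a had 12 and 0 counts. PHEX is an endopeptidase best known from bone and had 469 and 64 counts. BPGM, the bisphosphoglycerate mutase of red cells, fell from 5309 to 1269 counts, beside 6920 and 1819 for the LEN mutant pair. HHATL, a membrane protein of striated muscle, fell from 813 to 208 counts, the insulin receptor substrate IRS1 from 4535 to 1637, the malonyl-CoA decarboxylase MLYCD from 631 to 213 and the lipid phosphatase LPIN1 from 903 to 312. The comparisons with the 2 uninjured libraries share the wild-type 3 dpa library, so they are not independent.

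**Figure D4:**
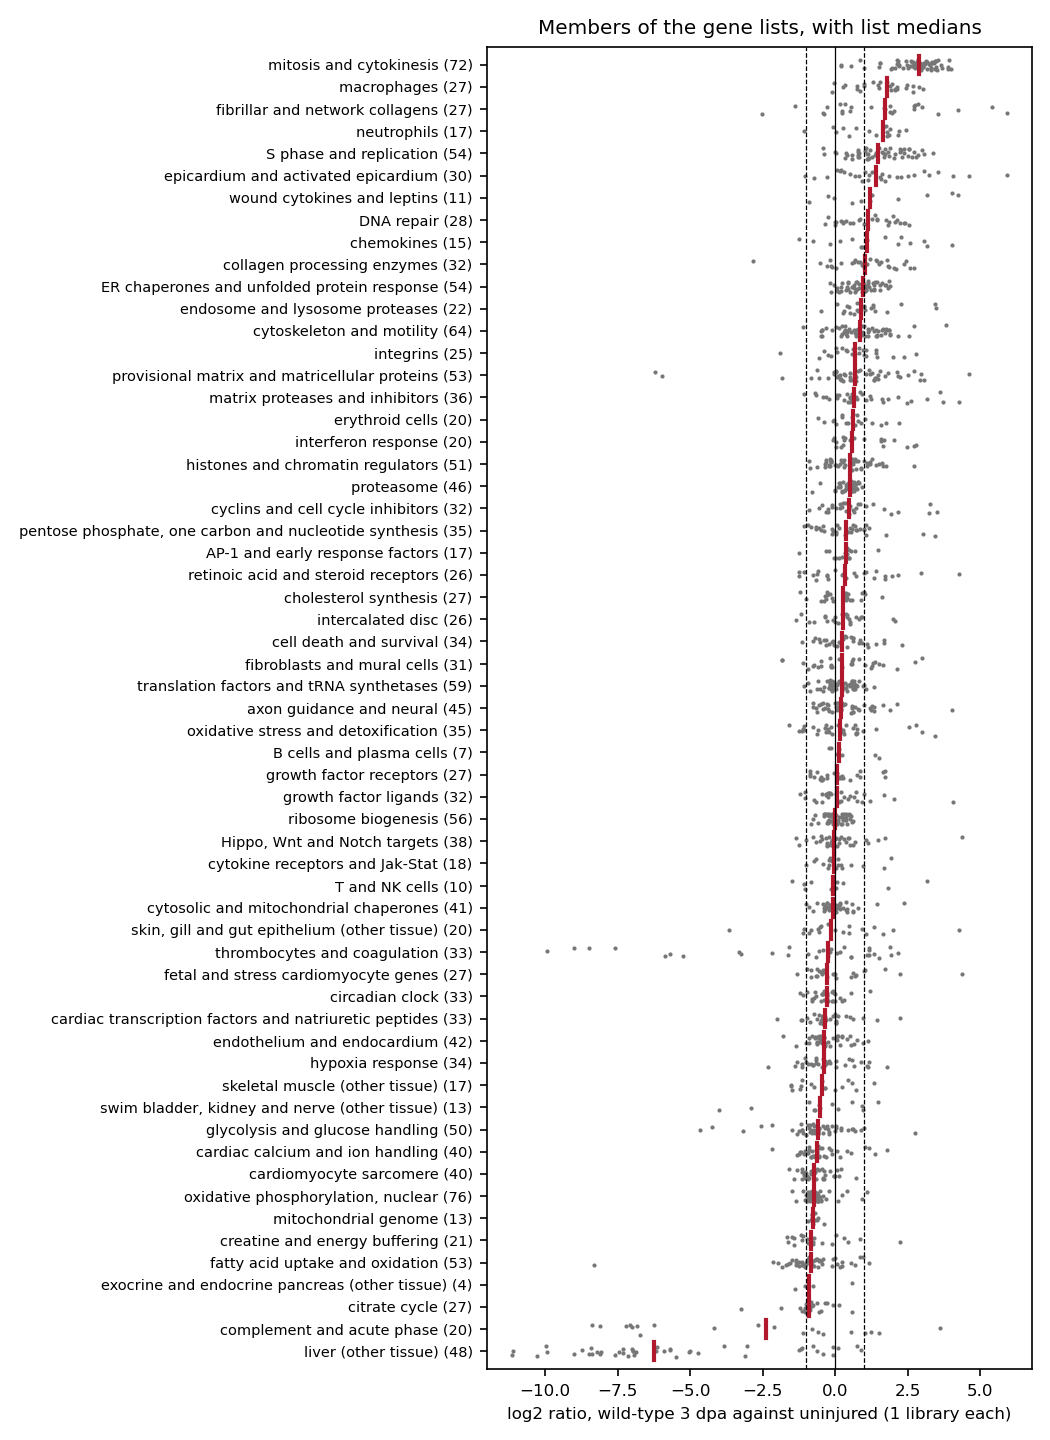
Log2 ratio of wild-type 3 dpa over uninjured for the members (points) of each of 59 gene lists, with the list median (red line) and dashed lines at 1 and -1. The medians run from 2.90 for mitosis and cytokinesis to -6.25 for the liver list, 34 are above 0, and the number of members is in brackets; lists share some genes.

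Set beside the LEN mutant pair, the list medians were close for the matrix and immune lists, with 1.71 and 1.75 for collagens, 1.40 and 1.42 for epicardium and 1.79 and 1.77 for macrophages in wild type and mutant. For mitosis the medians were 2.90 and 3.63, and the summed level at 3 dpa differed less (1380 and 1440 CPM) than the level in the uninjured libraries (294 and 242 CPM). The sarcomere medians were -0.74 and -0.96 and those of fatty acid genes -0.85 and -0.90. The widest gaps were in the liver list (-6.25 and 0.00) and the complement list (-2.39 and 0.74), where the uninjured libraries differed. With 1 library per group, none of these differences between genotypes was tested.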

How the data were processed

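RNA-seq was made from whole hearts, 1 library in each of 4 groups. The deposited values are raw counts per Ensembl gene ID, with no normalization by the authors that the sources used here give. The submitters' processing notes name HISAT2, featureCounts and the GRCz11 assembly without versions. The strand setting and the treatment of multiply mapped reads are not given in the sources used here, so IDs that share a symbol and overlapping genes are uncertain. Symbols came from a name table that matched 29201 of 32520 IDs.

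TMM factors were computed over the 4 libraries with edgeR 4.0.16 (R 4.3.3), and CPM and log2 ratios with Python 3.11.15. Log2 ratios used a prior count of 2. Exact conditional binomial 95% intervals came from scipy 1.17.1 and reflect counting error alone. Without molecular identifiers, PCR copies of a molecule are counted separately. A gene was called at a log2 ratio of at least 1 in size with an interval that excluded 0. A count of 0 was set at a floor of 3 counts for fold bounds. With 1 library in a group no dispersion can be estimated from replicates, so no p-values are given. The scripts were checked on simulated data.

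Genes were named by rule: among called genes with at least 10 CPM the 25 largest rises and falls by log2 ratio and the 10 largest gains and losses in CPM, then lepb and lepa, and examples from 59 gene lists. The members and the lists were chosen with earlier results of these data known, and lists share genes. Alternatives were other scalings (DESeq2 1.42.0 size factors, upper quartile, total count), other filters and limits, and the LEN mutant uninjured library as reference. Not every gene of these lists is reported here.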

Additional observations from a re-analysis of the deposited data

Results flagged for a closer look

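The injury contrast went in opposite directions in the genotypes for 24 members called in both pairs, 19 of them lower in wild type and higher in the LEN mutant, and 5 the other way. With 1 library in each group, the difference between genotypes was not tested for any of them. Leptin b (lepb) had a log2 ratio of 4.02 in wild type and -0.22 in the LEN mutant, with 2 and 78 counts in the wild-type and 2 and 2 counts in the LEN mutant libraries (uninjured and 3 dpa). It was not called in the mutant, whose interval of -4.23 to 3.35 gives no direction, since 2 and 2 counts differ by the library scaling alone.

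The collagenase mmp13a had a log2 ratio of -1.06 in wild type and 1.41 in the LEN mutant. Several liver-made or acute phase genes were among the others. The complement gene c3a.1 stood at -1.11 in wild type and 2.77 in the LEN mutant, the iron regulator hamp, with 2 counts in uninjured LEN mutant hearts, at -2.13 and 1.87, ceruloplasmin (CP) at -6.98 and 1.497, and the apolipoprotein apoc1 at -5.04 and 1.32. Of the 5 genes that went the other way, zgc:158463 rose in wild type from 4823 to 13516 counts and fell in the LEN mutant from 21130 to 12913, and myo15b rose from 69 to 411 and fell from 331 to 214. For these genes the uninjured libraries themselves differed, and the part of this difference in the result was not tested.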

How the results depend on the processing

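Under every alternative run more genes were called higher than lower. The share of calls that were higher was 66.0%, and became 62.9% with DESeq2 size factors, 56.7% with upper-quartile factors, 83.2% with the total count, 63.0% with no filter, 71.5% at a log2 ratio of at least 2 and 63.5% with the LEN mutant uninjured library as reference. The 1091 genes called lower became 608 under the total count. With at least 10 CPM, 1453 genes were called, 976 higher and 477 lower. At a log2 ratio of at least 2, 957 were called, 684 higher and 273 lower. With the LEN mutant uninjured library as reference the list medians of complement (1.53) and liver (0.16) turned positive. These medians cover only list genes that reached 1 CPM in that library or at 3 dpa, a different set from the main medians. The log2 ratios of apoa2 (1.01), FGG (0.525), fetub (0.525), itih3b.2 (0.525), UCP1 (1.195), serpina1l (0.24), hpda (0.091), FGB (2.03) and APOB (0.91) also turned positive. Each of these genes had at most 2 counts in the LEN mutant uninjured library and at most 7 in the wild-type 3 dpa library. Their ratios against that reference thus rest on very few counts. Of the other alternatives for named genes, 464 kept direction and call and 24 kept direction without the call. Of those for list medians, 726 stayed within a binomial 95% interval of the main median and 35 lay outside it. That interval was taken over the genes of the list, so it is wide for small or scattered lists. It does not measure variation between hearts. No paired analysis was possible because each group has 1 library and the labels give no shared replicate numbers. For the same reason no replicate could be left out. Depth limits genes near 1 CPM, whose intervals are widest.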

Other observations

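Many IDs carry the same symbol, and 930 pairs of such member IDs could be compared within the wild-type contrast, a comparison chosen after the data had been seen. In 35 pairs both IDs rose, in 21 both fell, in 159 one rose and the other was not called, in 67 one fell and the other was not called, and in 8 they were called in opposite directions. In the remaining 640 neither was called. The median absolute difference of the log2 ratios within a pair was 0.512, and 65 pairs were at least 2 apart. The multiple mapping of reads between such copies was not measured here. The midkine pair described above was among the opposite ones, as was the PI15 pair, with log2 ratios of -2.05 and 2.58.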
